A study of Homo sapiens with 6 samples.

Results

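The distal 18q23 stretch is the outermost part of the long arm of human chromosome 18. It was examined here in HEK293T, an established cell line from human embryonic kidney, by chromatin immunoprecipitation and sequencing (ChIP-seq) of the histone variant H2A.Z. The members are merged H2A.Z regions: peaks of ubiquitylated and of total H2A.Z that overlap or touch were joined, and those with a midpoint between 74.0 and 78.08 Mb of chromosome 18 (hg19) were kept. This gave 351 regions of 198179 in all. The stretch was chosen from the authors' differential calls, because nearly all of its called regions lay on the ubiquitylated side. The direction of its calls, its fold changes and the class of its peaks are therefore given as a description, without a test.

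The cells of every group carried the same transfected constructs, per the labels: H2A.Z-1 fused at its C-terminus to Flag and the biotin ligase BirA, and ubiquitin with an AviTag, the peptide that BirA biotinylates, at its N-terminus. The plasmids were given at a ratio of 3 to 1 and cells were collected after 48 hours. Micrococcal nuclease digestion of the nuclei took 30 minutes. Streptavidin then recovered nucleosomes with biotinylated ubiquitin (ubiquitylated H2A.Z, 2 samples), a Flag resin recovered all tagged H2A.Z (total H2A.Z, 2 samples), and H3 was immunoprecipitated in parallel (2 samples). The histone and the ubiquitin were both expressed from plasmids, so the endogenous proteins were not measured. The pull-downs used different reagents, so effects of the reagent and of ubiquitylation cannot be told apart. In the deposited lists each peak or region has 1 value, with none per library, so the read depth is unknown and no replicate error can be given.

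H2A.Z is placed into chromatin by dedicated remodelling complexes and is known from promoters, enhancers and boundaries of active and silent chromatin. Mono-ubiquitin is attached near its C-terminus, and the modified form has been linked to Polycomb repressive complex 1 and to silent chromatin, including the inactive X chromosome. The protein-coding genes with a symbol that RefSeq (GRCh38.p14) lists from ZNF516 to the end of the long arm number 15. In order from the centromere they are ZNF516 and ZNF236 (zinc finger proteins), MBP (a structural protein of myelin), GALR1 (a receptor for the neuropeptide galanin), SALL3 (a spalt-type developmental transcription factor), ATP9B (a putative lipid flippase), NFATC1 (a calcineurin-regulated transcription factor), CTDP1 (a phosphatase of the RNA polymerase II tail), KCNG2 (a potassium channel subunit), SLC66A2, HSBP1L1, TXNL4A (a spliceosome component), RBFA (a mitochondrial ribosome factor), ADNP2 (a homeobox protein) and PARD6G (a cell polarity protein). RefSeq places 0 protein-coding genes and 10 long non-coding RNA genes between GALR1 and SALL3. The gene order is background. No hg19 annotation or genome sequence was used here, so members were not assigned to genes, exons or introns and their sequences are not shown.

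Ubiquitylated H2A.Z supplied most of the peaks that passed the authors' reproducibility threshold in the stretch. It held 312 peaks of ubiquitylated H2A.Z and 108 of total H2A.Z, a ratio of 2.89. The same ratio was 0.978 over the rest of chromosome 18 and 0.999 over all peaks. In covered sequence the stretch carried 130.6 kb of ubiquitylated and 41.2 kb of total H2A.Z peaks, of which 25.8 kb were common to both. The common part was 19.8% of the ubiquitylated bases and 62.6% of the total H2A.Z bases, against 57.8% and 60.2% over all peaks. Most ubiquitylated sequence in the stretch had no total H2A.Z counterpart at the threshold.

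Of the 351 members, 245 (69.8%) held a ubiquitylated peak only, 67 (19.1%) held peaks of both lists and 39 (11.1%) held total H2A.Z peaks only. On the rest of chromosome 18 these shares were 33.6%, 30.9% and 35.5% of 1630 regions, and over all 198179 regions 28.9%, 41.9% and 29.2%. No member held more than 1 ubiquitylated peak, and 2 members held more than 1 total H2A.Z peak. Merged regions were in most cases single peaks or pairs.

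The irreproducible discovery rate (IDR), the authors' value per peak, measures how poorly a peak repeats between the replicates and lies at or under 0.05 in both lists. Peaks of both forms in the stretch had a higher IDR than the lists they came from. The median IDR of ubiquitylated peaks was 0.00409 in the stretch, 0.00297 on the rest of chromosome 18 and 0.00137 over the whole list. For total H2A.Z peaks it was 0.0078, 0.0046 and 0.00335. An IDR under 0.01 was reached by 64.1% of the ubiquitylated and 55.6% of the total H2A.Z peaks in the stretch, against 83.1% and 74.1% of all peaks. Whether the IDR bears on the other differences was not tested.

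Among ubiquitylated peaks, the lowest IDR values belonged to chr18:76287441-76287748 (IDR 5.05e-07), chr18:76073150-76073511 (2.09e-06) and chr18:76540223-76540699 (3.79e-06). The second of these overlapped a total H2A.Z peak. The third was the only one in a called region, with a log2 fold change of 0.67 and an FDR of 0.0036 in the authors' deposited table. For total H2A.Z the lowest values were those of chr18:74331670-74332206 (0.000138), chr18:77390347-77390642 (0.000679) and chr18:77551675-77552273 (0.000817), and the first 2 overlapped a ubiquitylated peak.

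In the authors' deposited tables of differential regions, 81 members (23.1%) were higher in ubiquitylated H2A.Z and 8 (2.28%) were higher in total H2A.Z, at a false discovery rate (FDR) of up to 0.05. The background over all merged regions was 9.39% and 12.1%. These calls proposed the stretch, so nothing is read from the contrast with the background. The other 262 members were in neither table. With an FDR under 0.01 the counts were 42 (12.0%; background 5.16%) and 2 (0.57%; background 7.09%).

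Most changes were under 2-fold. The fold changes are the authors' own and were read as log2 values, although the files do not state the base or the normalization between libraries. For the 81 members higher in ubiquitylated H2A.Z the authors' deposited table gave a lowest log2 fold change of 0.47, a median of 0.65 and a highest of 1.08. Across the genome, the authors' deposited table on that side had a median of 0.68 and a highest value of 4.35, and on the rest of chromosome 18 a median of 0.80 and a highest value of 3.35. At most of the other long-arm ends, given below, the median on that side was lower than in the stretch. A change of at least 2-fold was reached by 3 of the 81 (3.70%; 0.855% of members against a background of 1.47%), whereas it was reached by 15.6% of the regions called in that direction genome-wide and by 21.0% of those on the rest of chromosome 18. Fold changes exist only for regions that passed the authors' FDR threshold, so these shares are conditional on the call. Regions called in that direction had a median width of 542 bp in the stretch, 507 bp genome-wide and 400 bp on the rest of chromosome 18. The shares were not compared with a test, and whether width bears on them was not tested. On the other side 2 members passed 2-fold (0.57%; background 2.39%).

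The 3 changes above 2-fold in the authors' deposited table were at chr18:74916909-74917267 (1.08, FDR 0.00074), chr18:76345237-76345422 (1.04, FDR 0.016) and chr18:77444908-77445072 (1.03, FDR 0.012). They were 359, 186 and 165 bp wide, around a median of 335 bp over all members, and each held a ubiquitylated peak only. The 8 members with the lowest FDR were others. The authors' deposited table ranked chr18:76261247-76263116 first, with a log2 fold change of 0.81 and an FDR of 6.6e-09. It was the only 1 of these 8 with peaks of both lists, and at 1870 bp it was the second widest member. Next in the authors' deposited table came chr18:77629792-77630626 (0.80, FDR 3.7e-05), chr18:76564079-76564897 (0.90, FDR 7.1e-05), chr18:76123637-76123957 (1.00, FDR 8.6e-05) and chr18:76069175-76069726 (0.89, FDR 9.2e-05). The remaining 3 were chr18:76150304-76151546, chr18:76463317-76463755 and chr18:76361429-76361849, with FDR values from 0.00014 to 0.00017 in the authors' deposited table. Of the 8, 7 lay between 76.0 and 77.0 Mb. Towards the threshold the calls were many: 39 of the 81 had an FDR between 0.01 and 0.05 in the authors' deposited table.

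Calls followed the class of a member closely. Among the 245 members with a ubiquitylated peak only, 72 (29.4%) were called towards ubiquitylated H2A.Z and 0 towards total H2A.Z. Total H2A.Z peaks alone were held by 39 members, of which 6 (15.4%) were called towards total H2A.Z and 0 towards the ubiquitylated form. Over all merged regions, 23.8% of the first class and 30.5% of the second were called towards their own form. Of the 67 members with peaks of both lists, 9 (13.4%) were called towards the ubiquitylated form and 2 (2.99%) towards total H2A.Z, compared with 5.97% and 7.52% of all regions of that class. Peak lists and calls come from the same pull-downs, so the class of a member is no separate evidence for its call. A ubiquitylated peak without a counterpart was still mostly uncalled, since 173 of the 245 (70.6%) were in neither differential table.

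The 8 members higher in total H2A.Z lay in 2 places. In the first 0.7 Mb of the stretch were 6 of them. In the authors' deposited table their log2 values were -0.57 at chr18:74203796-74204427 (FDR 0.016), -1.21 at chr18:74215734-74215976 (FDR 0.00056), -0.73 at chr18:74230640-74230861 (FDR 0.044), -0.49 at chr18:74240550-74241191 (FDR 0.021), -0.74 at chr18:74331670-74332206 (FDR 0.0014) and -1.07 at chr18:74695219-74695380 (FDR 0.015). The other two were neighbours 95 bp apart, chr18:77198854-77199481 (-0.52, FDR 0.029) and chr18:77199577-77199911 (-0.74, FDR 0.022), again from the authors' deposited table. Opposite calls could be close together. The region at chr18:74240550-74241191, higher in total H2A.Z, ended 253 bp before chr18:74241445-74242011, which was higher in ubiquitylated H2A.Z (log2 fold change 0.48, FDR 0.048 in the authors' deposited table). The narrow region at chr18:74695219-74695380 ended 704 bp before chr18:74696085-74696700 (0.71, FDR 0.01 in the authors' deposited table), which opened the longest series.

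**Figure D1:**
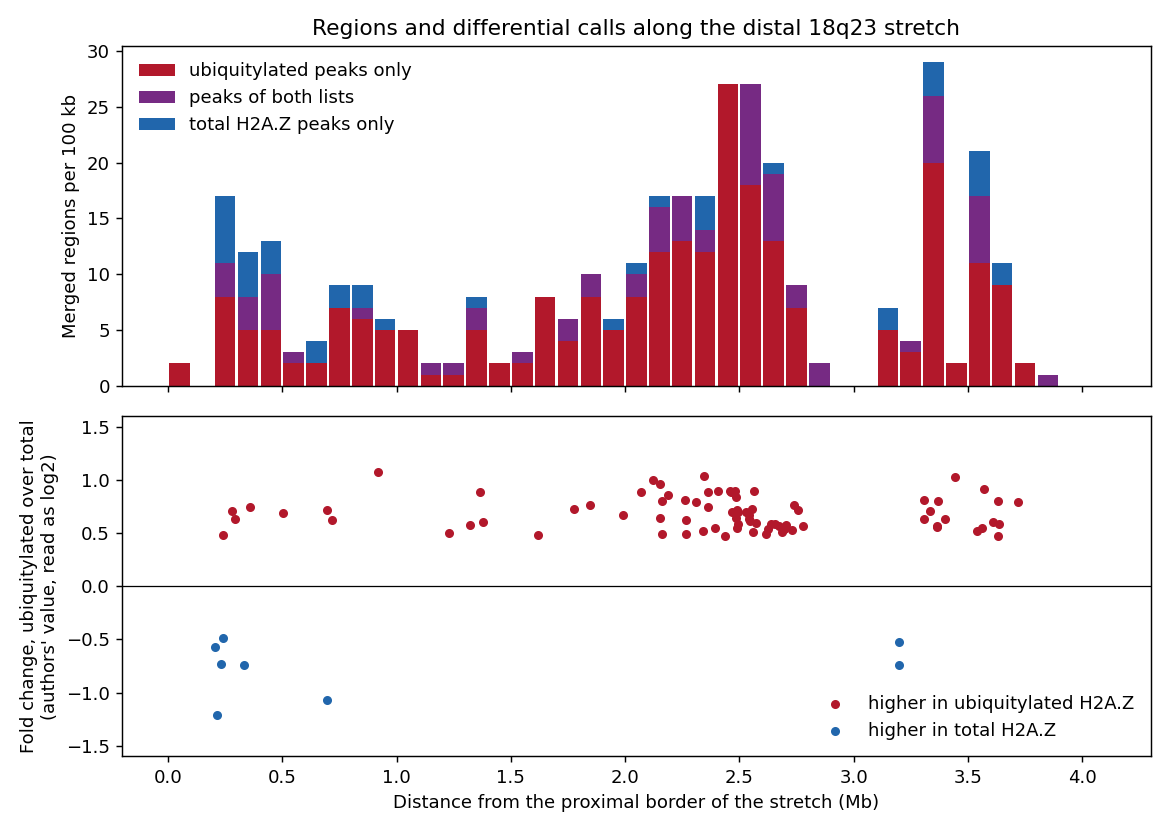
Top: number of merged regions in each 100 kb step, stacked by the lists whose peaks they hold, against the distance from the proximal border of the stretch in Mb. Bottom: the authors' fold change of each called region (1 point per region, read as log2) at the same positions. The 60 consecutive calls on the ubiquitylated side fill the middle, the 8 calls on the total H2A.Z side sit near 0.2 to 0.7 Mb and 3.2 Mb, and no region lies in the steps between 2.9 and 3.1 Mb.

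The longest series of like calls was of 60 members, all higher in ubiquitylated H2A.Z, from chr18:74696085 to chr18:76779449 (2.08 Mb). Within it lay 223 merged regions, of which 13 held total H2A.Z peaks only, and none of those was called. A second series of 16 regions higher in ubiquitylated H2A.Z ran from chr18:77308110 to chr18:77722042 (0.414 Mb, 65 merged regions). Between them stood the pair of regions higher in total H2A.Z. On the rest of chromosome 18 the longest series held 19 regions, all higher in total H2A.Z, and the longest towards ubiquitylated H2A.Z held 11. Of the 88 pairs of neighbouring called members, 81 had the same direction. Series of this kind follow from the calls that proposed the stretch.

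Members were unevenly spread, and their density peaked in the part from 76.0 to 77.0 Mb. In the first Mb, from 74.0 to 75 Mb, there were 75 members, with 8 calls towards the ubiquitylated form and 6 towards total H2A.Z. From 75 to 76.0 Mb there were 52 members with 8 and 0 calls. From 76.0 to 77.0 Mb there were 147 members (41.9% of all) with 49 and 0 calls, or 60.5% of all calls towards ubiquitylated H2A.Z. From 77.0 to 78.0 Mb there were 77 members with 16 and 2 calls, and beyond 78.0 Mb there was none. The share of members called towards ubiquitylated H2A.Z ran from 10.7% in the first Mb over 15.4% and 33.3% to 20.8%. Over all merged regions it was 9.39%, with 12.1% towards total H2A.Z. These calls proposed the stretch, so nothing is read from the contrast of its parts with the background. The first Mb, where the directions were mixed, differed most from the part between 76.0 and 77.0 Mb. The size of the change varied less: by Mb, the median log2 fold change of these calls from the authors' deposited table was 0.70, 0.64, 0.65 and 0.63.

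In steps of 500 kb the densest was 76.0 to 76.5 Mb with 89 members, 72 of them with a ubiquitylated peak only. It had 28 calls towards ubiquitylated H2A.Z (31.5%; background 9.39%). The emptiest of full length was 75 to 75.5 Mb with 19 members. The first step, 74.0 to 74.5 Mb, held 44 members. It had 5 calls towards total H2A.Z (background 12.1%) and 4 towards ubiquitylated H2A.Z (9.09%; background 9.39%). It was the only one of these with more of the former, but the counts are small and were not tested. Its 31 ubiquitylated and 24 total H2A.Z peaks were the most balanced pair. In the next step there were 24 and 9. At a finer scale, members with a ubiquitylated peak only outnumbered those with total H2A.Z peaks only in 33 of the 36 steps of 100 kb that held a member, and the other 3 were ties. The step from 76.4 to 76.5 Mb held 27 members, and every one of them had a ubiquitylated peak only. The next step outwards also held 27, of which 9 had peaks of both lists. The fullest single step was 77.3 to 77.4 Mb with 29 members.

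Several long intervals held no member. The widest, 324 kb, separated chr18:76828595-76829153 from the member that began at chr18:77153157. Others measured 181 kb (after chr18:74514111), 144 kb (after chr18:77722042) and 143 kb (after chr18:74060771). The last member was chr18:77865945-77866437, which held peaks of both lists and was not called, and the final 214 kb up to the border had none. Elsewhere members were close together: the median gap between neighbours was 2844 bp, compared with 11846 bp on the rest of chromosome 18 and 2161 bp over all regions. A gap under 1 kb followed 104 of 350 members (29.7%), against 21.7% on the rest of chromosome 18 and 36.6% overall.

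Around the proximal border the class of regions was the same on both sides. The last merged regions outside it were chr18:73946761-73946980, which was not called, and chr18:73971767-73971987, which was higher in ubiquitylated H2A.Z (log2 fold change 0.82, FDR 0.0093 in the authors' deposited table). The first inside were chr18:74039705-74039956 and chr18:74060529-74060771, neither of them called. All 4 held a ubiquitylated peak only. The first called members inside were the 4 higher in total H2A.Z from chr18:74203796 to chr18:74241191. At the distal end the last 2 members were chr18:77721443-77722042 (0.79, FDR 0.00056 in the authors' deposited table) and the uncalled region at chr18:77865945-77866437. The stretch is the outermost part of the long arm, so no merged region could lie beyond that border.

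Chromosome 18 was also divided into steps of 4.08 Mb counted from the distal border, so that the stretch is step 1 of 20. The neighbouring step, 69.92 to 74.0 Mb, had a similar make-up at lower density. It held 106 regions, 73.6% of them with a ubiquitylated peak only, and 14 calls towards ubiquitylated against 1 towards total H2A.Z. The stretch held 351 regions, or 86.0 per Mb, where the neighbouring step had 26.0 per Mb. Among the other 19 steps the number of regions ranged from 21 to 318, with a median of 56, and the number higher in ubiquitylated H2A.Z from 0 to 24. As a share of regions these calls made up 23.1% in the stretch. The next highest shares were 20.5% at 41.36 to 45.44 Mb and 20.0% at 12.8 to 16.88 Mb. Over all merged regions the share was 9.39%, and most of the other steps were below that. The step closest in density, 33.2 to 37.28 Mb with 318 regions, had 28.3% with a ubiquitylated peak only, and 24 against 22 calls. The stretch covers 5.23% of chromosome 18 up to the distal border, 17.7% of its 1981 merged regions and 40.5% of its 200 regions higher in ubiquitylated H2A.Z. The calls proposed the stretch, so nothing is read from its part of them or from its place among the steps.

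**Figure D2:**
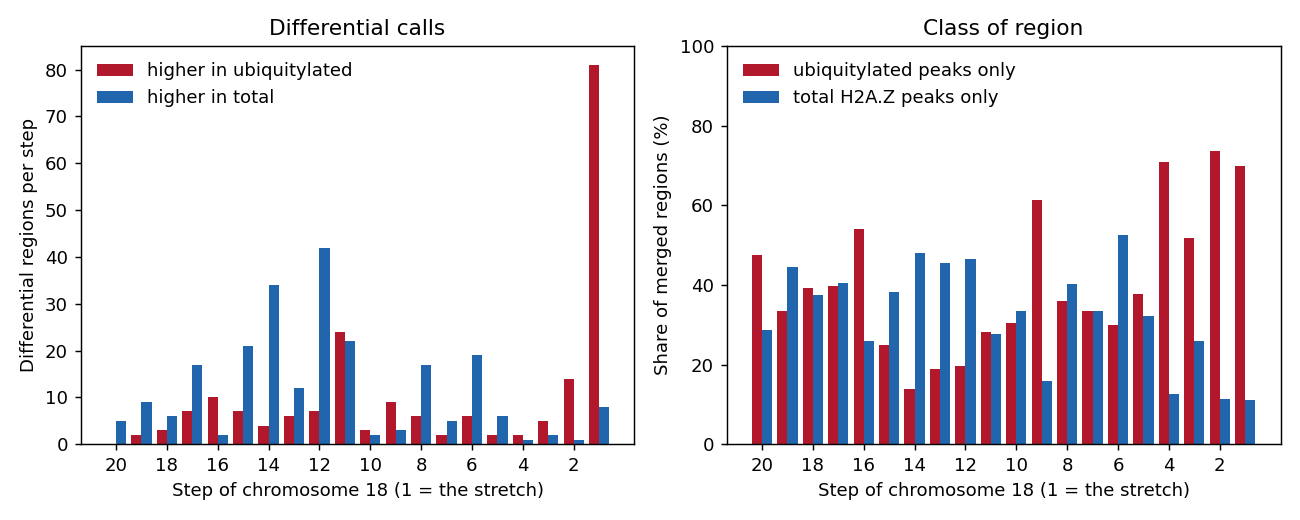
Chromosome 18 in steps of 4.08 Mb, numbered from the distal border (step 1 is the stretch; step 20, at the short-arm end, is shorter). Left: number of differential regions in each direction. Right: share of merged regions that hold peaks of 1 list only. Step 1 has 81 regions higher in ubiquitylated H2A.Z, against at most 24 in any other step, but the steps differ in their number of regions. As a share of regions, step 1 has 23.1% and the highest other step 20.5%. The calls proposed the stretch, so nothing is read from its place among the steps. Steps 1 and 2 have similar shares of regions with a ubiquitylated peak only (69.8% and 73.6%).

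Long-arm ends of the same length were taken on the 22 autosomes and X, counted back from the last merged region of each, which gave 361 regions for chromosome 18. In direction the end of 18q was like several others. Of its called regions 91.3% were higher in ubiquitylated H2A.Z, below chromosomes 10 (93.9%) and 22 (92.9%) and next above 20 (90.8%) and 7 (90.8%). The median of the other 22 ends was 81.0%, and the lowest was chromosome 3 with 20.0%. In density it was at the low end, with 88.5 regions per Mb, rank 20 of 23, where chromosomes 10, 22, 20 and 7 had 332 to 430 per Mb. In the share of regions with a ubiquitylated peak only it ranked first, with 70.1% against 22.2 to 58.7% at the other ends (median 33.5%). In the next ranks were chromosomes 4 (58.7%) and 13 (56.5%), with 18.4 and 91.9 regions per Mb. The ends of chromosomes 1 (18.6 per Mb) and 3 (59.1 per Mb), also sparser than that of 18q, had 40.8% and 33.6%, at ranks 7 and 11. Whether the density of an end bears on this share was not tested. The median width of regions at the end of 18q was 334 bp, at rank 19 together with chromosome 6, and the median over the other ends was 387 bp. For calls towards ubiquitylated H2A.Z, the median log2 fold change from the authors' deposited table was 0.67 at the end of 18q, rank 7 of 23. The median over the other ends was 0.62. These ranks describe the lists and were not tested. In the outer 2 Mb of the stretch alone there were 213 regions, with 64 calls towards the ubiquitylated form and 2 towards total H2A.Z. The background over all merged regions was 9.39% and 12.1%. The outer 2 Mb of other chromosomes is not given here, so this count describes the stretch only.

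**Figure D3:**
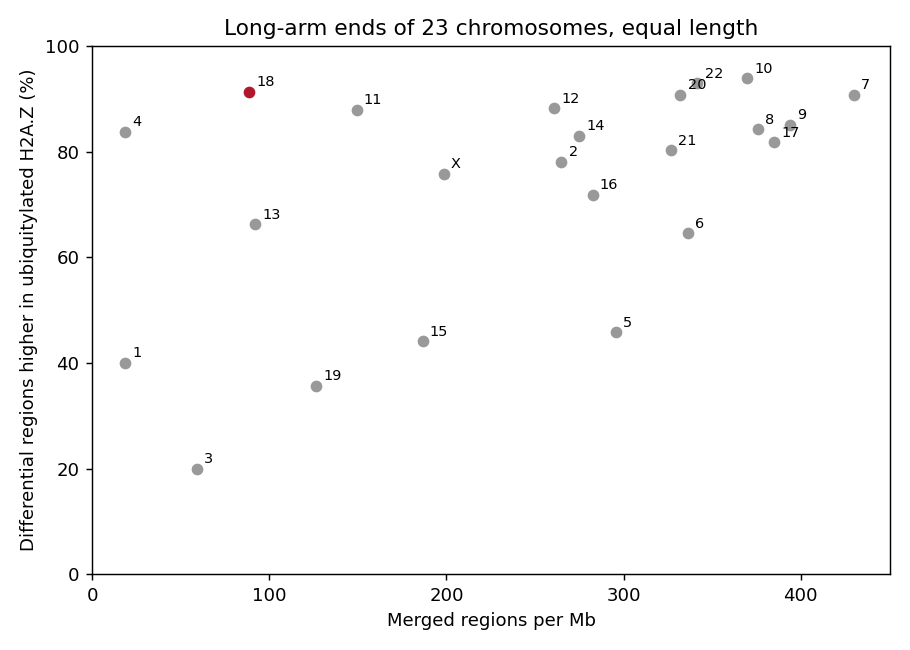
Each point is the long-arm end of 1 chromosome (4.08 Mb back from its last merged region), with the density of merged regions on the x axis and the share of its differential regions that were higher in ubiquitylated H2A.Z on the y axis. Chromosome 18 (red) lies at 88.5 regions per Mb and 91.3%, level with chromosomes 10, 22, 20 and 7 in share and far to their left in density.

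Members ranged in width from 148 to 2062 bp with a median of 335 bp, compared with 293 bp on the rest of chromosome 18 and 313 bp over all regions. Those higher in ubiquitylated H2A.Z had a median width of 542 bp, those higher in total H2A.Z of 436 bp and those not called of 292 bp. Over all regions the order was the same at 507, 362 and 295 bp. Members were also split by width into 4 near-equal classes. From the narrowest to the widest, 13.6%, 11.5%, 20.5% and 30.7% held peaks of both lists. Of the 88 narrowest members (148 to 224 bp), 5 (5.68%) were higher in ubiquitylated H2A.Z, then 11 of 87 (12.6%) and 23 of 88 (26.1%). Of the 88 widest (511 to 2062 bp), 42 (47.7%) were. Over all merged regions, of any width, the share was 9.39%, and it is not given by width class. Fold changes exist only for regions that passed the authors' FDR threshold, so their relation to width is conditional on the call. From the narrowest to the widest class, these calls had median log2 values of 0.90, 0.73, 0.67 and 0.59 in the authors' deposited table. Over the same classes the lowest value in the authors' deposited table was 0.75, 0.58, 0.52 and 0.47, and the highest was 1.04, 1.00, 1.08 and 0.90. The lowest values thus fell from class to class, while the highest had no such order over the first 3 classes. Across the 81 regions, Spearman's rho between width and fold change was -0.43, and across all 18614 regions higher in ubiquitylated H2A.Z it was -0.60. Each rho is a description over regions that share their libraries and were kept by the call, with no test. Width also differed by call within 1 class: members with a ubiquitylated peak only had a median width of 487 bp where called and 282 bp where not. Their median IDR was 0.00437 and 0.00646.

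The 5 widest members were chr18:76625625-76627686 (2062 bp), chr18:76261247-76263116 (1870 bp), chr18:77608320-77610054 (1735 bp), chr18:76257619-76259341 (1723 bp) and chr18:77366364-77367952 (1589 bp). Of these, 4 were in the authors' deposited table as higher in ubiquitylated H2A.Z, with log2 fold changes of 0.54, 0.81, 0.61 and 0.56. The exception was chr18:76257619-76259341, which held a peak of each list, both at a low IDR (0.000178 and 0.00209), and was in neither differential table. It lay about 2 kb before the member with the lowest FDR. The first 2 of the 5 each held 1 ubiquitylated peak and 2 total H2A.Z peaks.

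**Figure D4:**
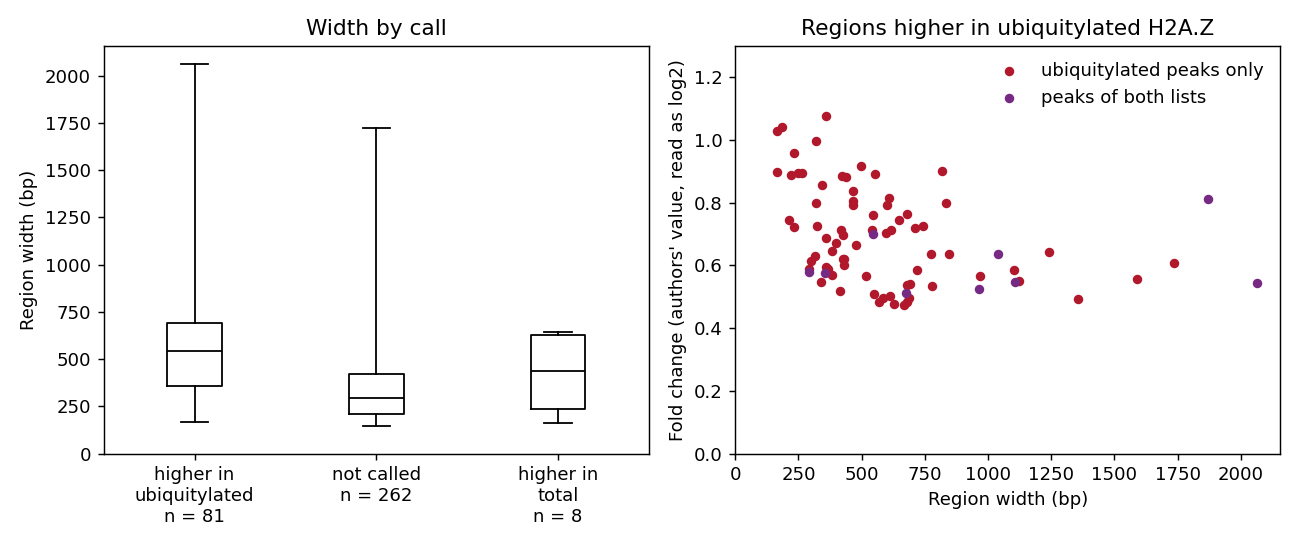
Left: width in bp of members by call (box, quartiles with the median; whiskers, lowest and highest value), with medians of 542 bp (higher in ubiquitylated), 292 bp (not called) and 436 bp (higher in total). Right: width and the authors' fold change (read as log2) of the 81 members higher in ubiquitylated H2A.Z, coloured by the lists whose peaks they hold. The smallest called change falls from 0.75 in the narrowest class of members to 0.47 in the widest.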

How the data were processed

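ChIP-seq of ubiquitylated H2A.Z, total H2A.Z and H3 was done with 2 samples each in HEK293T cells. The submitters' processing notes name Bowtie, SAMtools, MACS2, edgeR and hg19, with their settings not given in the sources used here. Per the files, the authors deposited 1 peak list per H2A.Z form, whose value per peak (largest 0.05) was read as the IDR, a q-value-like measure, and 2 lists of differential regions with an FDR of up to 0.05. The fold values the authors deposited there were read as log2 of ubiquitylated over total H2A.Z. The H3 samples entered no comparison here.

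Starts were raised by 1 base. Peaks of both lists were merged where they overlapped or touched, and every differential region matched 1 merged region exactly. Merging and joining were tested on simulated data. Named regions are the 8 of lowest FDR and the 3 of largest change towards ubiquitylated H2A.Z, all towards total H2A.Z, and the 3 peaks of lowest IDR per list. Also named are the 5 widest members, 2 on each side of the proximal border, the last 2 inside the distal border, the longest series, and the densest and emptiest parts. Others were named after their values were seen. The stretch and the lists were chosen with earlier results of these data known, and no test was made. The labels do not say if replicates came from separate cultures. Scripts ran in Python 3.11.15 with pandas 2.3.3, numpy 2.4.6 and scipy 1.17.1, and figures were drawn with matplotlib 3.10.9.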

Additional observations from a re-analysis of the deposited data

How the results depend on the processing

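No paired analysis was possible because no library has values of its own in the lists, and leaving out a replicate could not be run either. Of 59 alternative values, 45 stayed within the counting interval of a share or median, or within 1.5 times a count. A change of sign was not possible, since the values were counts, shares, widths, ratios, IDRs or medians of calls in 1 direction. Some alternatives kept the same 351 members, so their values did not move. The interval takes regions as separate counts although they share their libraries, so it is no replicate error. With peaks under an IDR of 0.01, the stretch held 227 regions (55.6 per Mb), and the median IDR became 0.00131 (ubiquitylated) and 0.00274 (total), as that limit fixes. With an FDR under 0.01, 42 regions were called towards the ubiquitylated form and 2 towards total H2A.Z (95.5% of calls towards ubiquitylated), and the median log2 fold change of the former in the authors' deposited table was 0.72. With changes of at least 2-fold, 3 and 2 regions were left (60.0%), with a median of 1.04 in the authors' deposited table. Without the first 1 Mb, 2 regions were higher in total H2A.Z and the share towards ubiquitylated H2A.Z was 97.3%. Shares of regions with a ubiquitylated peak only and the ratio of peaks kept within these limits under every alternative listed for them. Depth per library is unknown.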

Other observations

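Chromosome 18 as a whole was the sparsest of the 22 autosomes and X. It held 1981 merged regions, 25.4 per Mb between its first and last region, where the other chromosomes had a median of 69.7 per Mb and the next lowest were chromosome 4 (30.5), 13 (37.6) and 3 (48.2). The distal 18q23 stretch, at 86.0 per Mb, thus stood above the median of whole chromosomes while lying on the chromosome with the fewest regions per Mb, and the remainder of chromosome 18 had 22.0 per Mb. Among long-arm ends of the same length it was sparse: the end of 18q had 88.5 per Mb (rank 20 of 23), against a median of 279 over the others. How the density of the chromosome relates to the make-up of the stretch was not tested.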
